A study of Mus musculus with 8 samples.

Results

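Spock2, Mfap4, Tmem119 and Aldh1b1 are 4 genes that lay lower in every Prtg knockout library than in every other library of the series. That pattern in the deposited counts is how they were picked, so the differences between knockouts and the other genotypes are given below as a description, with no test. They are 4 of the 55573 genes in the deposited table and 4 of the 16262 genes that passed the expression filter, and each had reads in all 8 libraries. The pattern itself was common: 4.41% of the tested genes, 717 genes, had all knockout libraries below all others in CPM (a gene's reads scaled to a common library size, with TMM correction), and 4.21% had all of them above. In unscaled counts the share below was 3.44%.

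C57BL/6 mouse embryos were taken at embryonic day 9.5, and RNA was made from the posterior trunk, the tissue behind a division made between somites 12 and 13. There were 3 homozygous knockout libraries (KO), 3 heterozygous libraries (Het) and 2 wild-type libraries (WT), and n is 3, 3 and 2 throughout. All embryos came from matings of heterozygous males with heterozygous females, so the mother of every embryo carried 1 knockout allele. Prtg encodes protogenin, a membrane-spanning receptor with immunoglobulin domains, and the study's title names the passage from trunk to tail identity of the Hox code and GDF11/SMAD2 signalling. The labels do not say which part of Prtg the allele removes, how many embryos went into a library or which litters they came from, so the spread between libraries may be partly technical.

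The 4 genes act in different places of the cell. Spock2 encodes testican-2, a secreted proteoglycan of the SPARC family that sits in the extracellular matrix. Mfap4 encodes a secreted glycoprotein of the fibrinogen-related family that binds elastic microfibrils. Tmem119 encodes a single-pass membrane protein known from osteoblast differentiation, where it acts with BMP signalling, and as a marker of microglia, the resident macrophages of the brain. Aldh1b1 encodes an aldehyde dehydrogenase of the mitochondrial matrix that oxidises acetaldehyde and other aldehydes. The names mesenchymal and membrane, under which the genes had been grouped, thus describe Aldh1b1 poorly, and the deposited annotation places it in the mitochondrial matrix. The genes are therefore called by their symbols.

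The genes lie on 4 different chromosomes. In the coordinates of the deposited table, which equal those of GENCODE release M21 on GRCm38, Spock2 (ENSMUSG00000058297) spans chr10:60106219-60135198 on the plus strand, with 11 exons in its longest coding transcript and 5533 exonic bases in all. Mfap4 (ENSMUSG00000042436) spans chr11:61485431-61488900 on the plus strand, with 5 exons and 1922 exonic bases. Tmem119 (ENSMUSG00000054675) spans chr5:113793729-113800516 on the minus strand and Aldh1b1 (ENSMUSG00000035561) spans chr4:45799022-45804604 on the plus strand, both with 2 exons of which 1 is coding. The last 89 bases of Mfap4 overlap Mapk7 on the opposite strand, and the library kit, as named, does not mark strand. Mapk7 had 117 ± 10.6 CPM in KO and 110 ± 3.01 CPM in the 5 Het and WT libraries (SD), with no lower level in KO.

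The upstream sequences of Spock2 and Aldh1b1 are shown with SMAD box letters marked, since the study's title names SMAD2, and these are the 2 of the 4 genes that were matched in the promoter table. Both are from RefSeq, build GRCm38.p6, plus strand, 5′ to 3′. Capitals mark CAGAC, the core letters of a SMAD box, and GGGCGG, a GC box. The Spock2 window is chr10:60106007-60106226, printed to 8 bases past the deposited gene start, and the Aldh1b1 window is chr4:45798772-45799021.
Spock2: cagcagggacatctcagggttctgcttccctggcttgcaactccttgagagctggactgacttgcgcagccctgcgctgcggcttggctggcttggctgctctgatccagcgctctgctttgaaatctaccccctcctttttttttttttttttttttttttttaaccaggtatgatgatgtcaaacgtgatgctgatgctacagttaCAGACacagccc
Aldh1b1: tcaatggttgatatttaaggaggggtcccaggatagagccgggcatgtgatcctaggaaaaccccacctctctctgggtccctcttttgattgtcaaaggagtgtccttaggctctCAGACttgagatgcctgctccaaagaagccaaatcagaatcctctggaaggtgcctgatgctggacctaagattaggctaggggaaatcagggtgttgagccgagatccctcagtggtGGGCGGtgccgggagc
Each window held 1 CAGAC, 42 bases before the RefSeq start of Spock2 and 134 bases before that of Aldh1b1. In Spock2 the last base of the match is the deposited gene start, which lies before the RefSeq start. That motif was in 42.2% of 32851 windows of 250 bases before a RefSeq start. Aldh1b1 also had 1 GGGCGG at 16 bases before its start, a motif found in 32.7% of the windows, and 1 CANNTG (an E-box) at 207 bases before it, found in 66.2%. The TATA box TATAAA was in neither window and in 12.4% of all windows. The CCAAT box letters CCAAT were also in neither, beside 33.8% of all windows. TTTATG, the letters bound by CDX proteins, had no match and was in 10.8% of all windows. Motifs were searched on both strands over the full 250 bases before each RefSeq start, and the matches listed did not overlap each other. For Spock2 the last of those bases, up to its RefSeq start, are not printed.

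Library totals lay between 16874860 and 17511964 counts. Prtg itself had 268, 254 and 237 CPM in KO, 250, 240 and 282 CPM in Het, and 317 and 386 CPM in WT. Its whole-gene count therefore did not separate KO from Het libraries (KO minus Het −0.03 ± 0.09 log2, edgeR adjusted p = 0.932), and it is a weak check of the genotype labels. KO lay −0.47 ± 0.10 log2 from WT (edgeR adjusted p = 0.148) and −0.25 ± 0.08 from the mean of Het and WT (edgeR adjusted p = 0.270). Columns of the deposited table carry a genotype and 2 numbers, and libraries are named by them, as in KO 1-3. KO 1-3 stood apart most, with a variance against the other KO libraries of 21.5 and 24.6 times counting noise, where pairs of the same genotype without it lay at 4.55 to 9.83. Xist was at 803 to 1100 CPM in KO 1-3, Het 1-1, Het 2-4 and WT 1-2 and between 1.52 and 3.57 CPM in the remaining 4. Posterior identity of the tissue was visible in its markers. The tailbud and presomitic list, which holds T, Cdx2, Tbx6 and Msgn1, summed to 1032 to 1236 CPM in KO, 849 to 1098 CPM in Het and 909 to 1140 CPM in WT. The head and forelimb-level list summed to no more than 33.2 CPM in any library. In bulk RNA, fewer cells of a type and less RNA per cell cannot be told apart, which holds for every level below.

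Spock2, the matrix proteoglycan gene, had 17.0, 17.5 and 19.1 CPM in KO, 36.5, 34.4 and 32.6 CPM in Het, and 43.4 and 36.0 CPM in WT. The KO libraries formed a tight group, and the highest of them lay well under the lowest of the others, Het 2-5. Mean levels were 17.9 ± 1.06 CPM in KO, 34.5 ± 1.96 CPM in Het and 39.7 ± 5.21 CPM in WT (SD), so KO kept 45.0% of the WT level and 51.8% of the Het level. On the log2 scale KO lay −1.15 ± 0.11 (SE) from WT and −0.95 ± 0.10 from Het.

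Mfap4, the microfibril gene, had 12.5, 22.1 and 20.3 CPM in KO, 38.0, 41.4 and 36.9 CPM in Het, and 44.6 and 37.9 CPM in WT. KO 1-3 was the lowest library and stood well below the other KO libraries, which were themselves below every Het and WT library. The means were 18.3 ± 5.12 CPM in KO, 38.8 ± 2.35 CPM in Het and 41.2 ± 4.71 CPM in WT. KO lay −1.17 ± 0.19 log2 from WT and −1.08 ± 0.17 from Het. Without KO 1-3 the difference from WT was −0.96.

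Tmem119, the membrane protein gene, had the smallest KO difference of the 4. It had 24.5, 27.2 and 32.0 CPM in KO, 52.0, 48.6 and 46.2 CPM in Het, and 44.5 and 48.5 CPM in WT. The Het and WT libraries were interleaved, and all lay above the KO libraries. KO averaged 27.9 ± 3.78 CPM, Het 48.9 ± 2.92 CPM and WT 46.5 ± 2.86 CPM, so that KO held 60.0% of the WT level and 57.0% of the Het level. The log2 difference was −0.74 ± 0.11 from WT and −0.81 ± 0.10 from Het.

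Aldh1b1, the mitochondrial enzyme gene, had the fewest reads of the 4. It had 2.77, 3.16 and 3.62 CPM in KO, 8.62, 8.09 and 6.44 CPM in Het, and 7.07 and 4.68 CPM in WT. The nearest libraries of different groups were KO 2-3 with 63 reads and WT 2-1 with 80 reads, and their exact Poisson 95% intervals, 48.4 to 80.6 and 63.4 to 99.6 reads, overlapped (counting error only). The means were 3.18 ± 0.424 CPM in KO, 7.72 ± 1.13 CPM in Het and 5.87 ± 1.69 CPM in WT. KO lay −1.27 ± 0.21 log2 from Het and −0.88 ± 0.23 from WT, and the difference from WT moved to −0.56 without WT 1-2 and to −1.15 without WT 2-1.

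**Figure D1:**
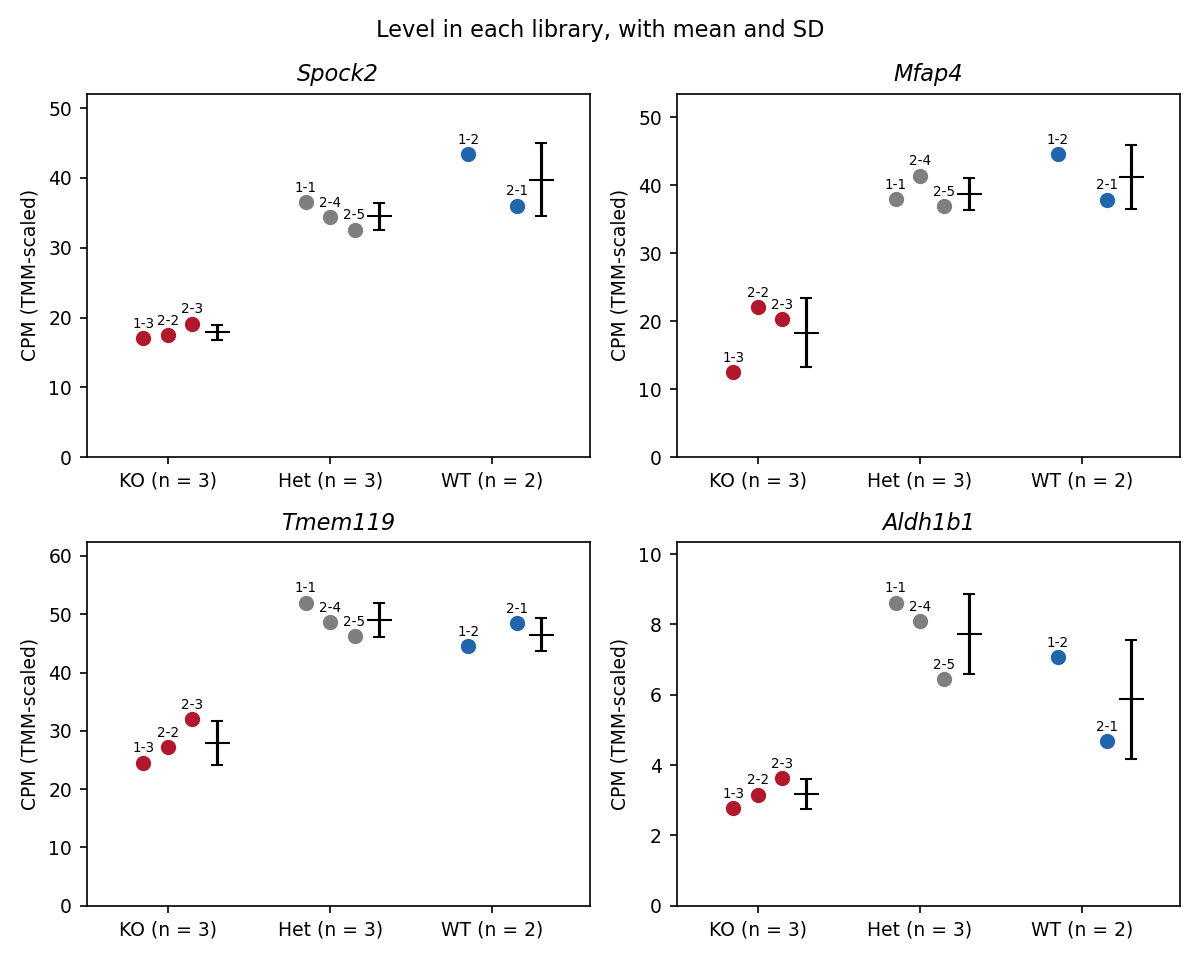
CPM after TMM scaling (vertical axes, each from 0) of the 4 genes in each library, KO left of Het and WT, with the mean and SD of each genotype as bars. All 3 KO points lie below the 5 other points in each panel, and the gap is narrowest for Aldh1b1, where KO 2-3 is at 3.62 CPM and WT 2-1 at 4.68 CPM.

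Among the 580 genes with the same pattern and a mean of at least 5 CPM over the libraries, the gap between the highest KO and the lowest other library placed Spock2 9th, Mfap4 10th, Tmem119 18th and Aldh1b1 30th, with gaps of 0.77, 0.74, 0.48 and 0.37 on the log2 scale. Just inside the rule were Prrx1 (highest KO 58.05 CPM, lowest other 58.18 CPM) and Cdh5 (113.87 and 114.79 CPM), and just outside it Zeb1 (60.92 and 60.64 CPM) and Twist1 (89.48 and 87.42 CPM), among genes of the lists used below with a mean of at least 5 CPM.

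The level in heterozygous embryos was tested against WT, since the choice of the genes did not use the order of Het and WT. The choice did require every Het and WT library to lie above every KO library, so Het levels at or below KO could not occur. The test is therefore not fully independent of the choice. None of the 4 genes was called in Het against WT by the edgeR quasi-likelihood test (Benjamini-Hochberg adjusted p = 1 for each). Prtg itself, at −0.45 ± 0.10 log2 in Het against WT (edgeR unadjusted p = 7.19e-04), was not called either. In all, 0 of the 16262 tested genes were called (0%), 292 (1.80%) had an unadjusted p below 0.05, and DESeq2 called 1. Spock2 was −0.20 ± 0.11 log2 in Het against WT (95% interval −0.44 to 0.03), Mfap4 −0.09 ± 0.18 (−0.49 to 0.31), Tmem119 0.07 ± 0.11 (−0.17 to 0.31) and Aldh1b1 0.39 ± 0.22 (−0.09 to 0.88). The Het values lay on either side of WT, and the intervals do not show that the genotypes are alike: for Aldh1b1 the interval reached 0.88 log2 above WT, and for Mfap4 0.49 below it.

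**Figure D2:**
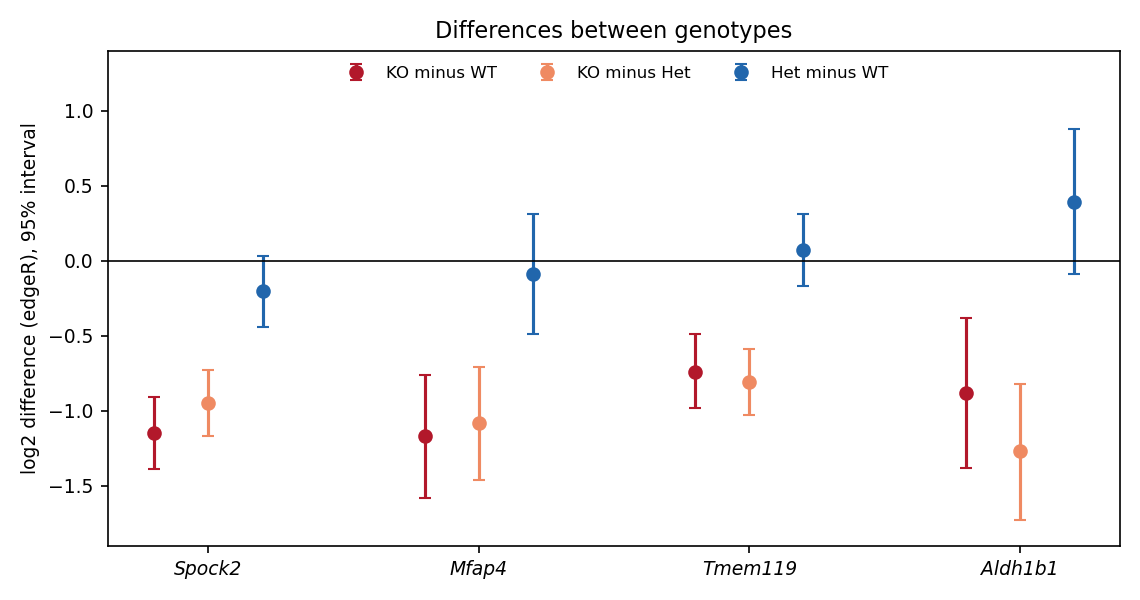
Log2 differences of the 4 genes with 95% intervals (edgeR), for KO minus WT, KO minus Het and Het minus WT. The Het minus WT intervals all include 0, for example −0.44 to 0.03 for Spock2 and −0.09 to 0.88 for Aldh1b1, and the KO differences, a description since the genes were chosen on them, run from −1.27 to −0.74.

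Per length, the genes were not equally abundant. In FPKM (counts divided by exonic length in kilobases and by library total), Tmem119 averaged 12.0 ± 1.61 in KO, 21.1 ± 1.23 in Het and 20.1 ± 1.18 in WT, and Mfap4 9.5 ± 2.66, 20.2 ± 1.29 and 21.4 ± 2.50 in the same order. These 2 genes did not differ from each other beyond their spread in any genotype. Spock2 was lower, at 3.22 ± 0.186, 6.24 ± 0.347 and 7.17 ± 0.958 FPKM, and Aldh1b1 lowest, at 1.38 ± 0.182, 3.36 ± 0.492 and 2.56 ± 0.741 FPKM. By mean FPKM, Tmem119 exceeded 79.3% of tested genes, Mfap4 78.2%, Spock2 53.7% and Aldh1b1 38.3%.

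Within genotypes the libraries were ordered alike for some of the genes. Spock2 and Aldh1b1 ranked the libraries in the same order in all 3 genotypes: KO 1-3 lowest and KO 2-3 highest of KO, Het 2-5 lowest and Het 1-1 highest of Het, and WT 2-1 below WT 1-2. Tmem119 gave the same order in KO and Het and the opposite one in WT. Mfap4 also had KO 1-3, Het 2-5 and WT 2-1 lowest of their genotypes, but KO 2-2 was its highest KO library and Het 2-4 its highest Het library. The KO order of Aldh1b1 rests on 47, 54 and 63 reads, with overlapping exact Poisson 95% intervals (34.5 to 62.5, 40.6 to 70.5 and 48.4 to 80.6). Spock2 had 289 and 299 reads in KO 1-3 and KO 2-2, so the shared KO order lies partly within counting error. The spread within genotypes was smallest for Spock2 (SD 0.109 log2) and largest for Mfap4 (0.280 log2), which exceeded that of 97.2% of genes of similar level.

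**Figure D3:**
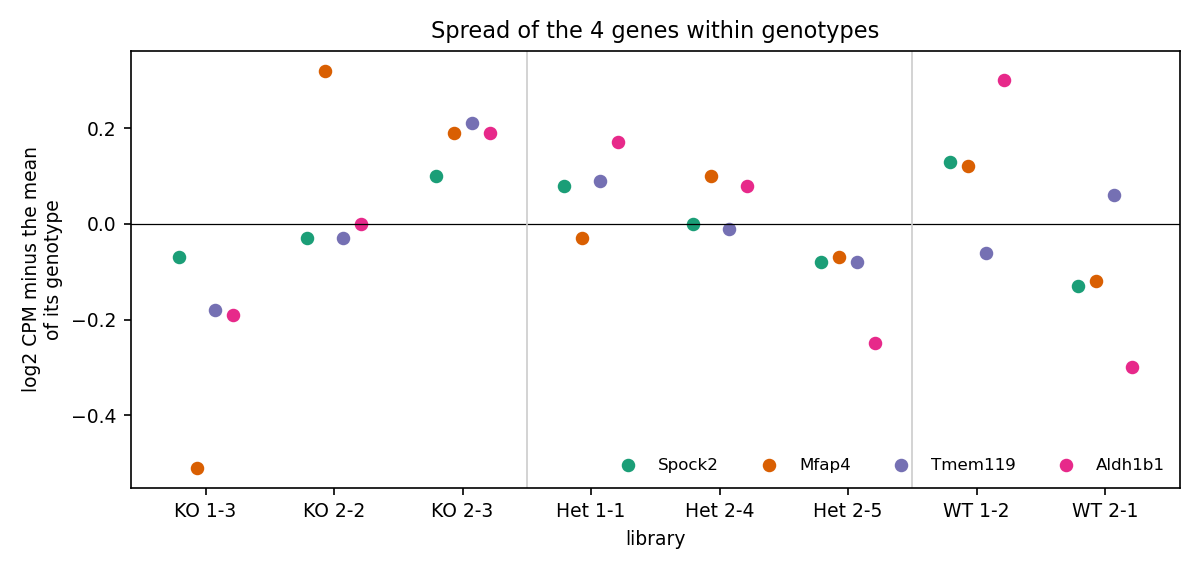
Log2 CPM of the 4 genes in each library minus the mean of its genotype (vertical axis), KO libraries left of Het and WT. Spock2, Tmem119 and Aldh1b1 order the KO and Het libraries alike, and Mfap4 in KO 1-3 lies lowest at −0.51.

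The first number of the column names, whose meaning the sources do not give, splits the libraries into 2 sets. Since the genes were picked with every KO library below all others, KO is lower within each set by that choice, and the values below describe the size alone. In set 1 (KO 1-3 against Het 1-1 and WT 1-2) the log2 difference of mean CPM was −1.23 for Spock2, −1.72 for Mfap4, −0.98 for Tmem119 and −1.50 for Aldh1b1. In set 2 (2 KO against 3 other libraries) it was −0.91, −0.87, −0.69 and −0.92 in the same order. The 3 libraries of set 1 were all high in Xist, and a KO library low in Xist occurred in set 2 alone.

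Genes whose levels over the 8 libraries were most like these were found by Pearson correlation of log2(CPM + 1) over 11120 genes, as a description with no test, since all points share the KO difference. Spock2 was nearest to Hoxc11 (r = 0.981), a homeobox gene, and Fst (0.978) was also among its most alike genes. Fst encodes follistatin, an antagonist of activin and GDF11. Hoxc11 stood at 1.68 ± 0.686 CPM in KO, 11.0 ± 2.72 CPM in Het and 11.5 ± 3.95 CPM in WT. Mfap4 was nearest to Chd3 (0.992), a chromatin remodeller, Hoxd10 (0.990) and Rrm1 (0.986), a ribonucleotide reductase subunit. Tmem119 was nearest to Grrp1 (0.990), the hindlimb regulator Pitx1 (0.989) and the sialyltransferase gene St6gal1 (0.983). Aldh1b1 was nearest to Etfa (0.991), which encodes an electron transfer flavoprotein subunit, Oxct1 (0.977), a ketone body enzyme, and Wt1 (0.973), a regulator of mesothelium and kidney.

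No relative of the 4 genes in the lists below was called by edgeR. The contrast used from here on is KO against the mean of Het and WT. In it, 0.258% of tested genes were called lower and 0.0738% higher at an edgeR adjusted p below 0.05. DESeq2 called more, 125 genes lower and 74 higher, and its calls in the lists below are to be read beside those totals. Over all tested genes, 7863 values lay below 0 and 8399 above. The share of all tested genes with an unadjusted p below 0.05 was not computed for this contrast. Counts of such genes per list are therefore given with no background, and whether they are unusual cannot be read from them. Of the 7 tested relatives of Spock2 in the SPARC and SPOCK family, edgeR and DESeq2 called 0 and 1 had an unadjusted p below 0.05. Their median was 0.05 log2, beside 0.01 for all tested genes. Sparc, the founding collagen-binding member, was −0.20 ± 0.09 log2, and Sparcl1 0.15 ± 0.07. The 18 tested microfibril and elastic fibre genes beside Mfap4 had a median of −0.07. EdgeR called 0 of them, 4 had an unadjusted p below 0.05, and DESeq2 called 1 lower, Emilin1, and 1 higher, Fbln1. Emilin1, an elastic fibre glycoprotein, was −0.34 ± 0.07 (adjusted p = 0.101, DESeq2 adjusted p = 0.00557), with 107 ± 13.1 CPM in KO, 130 ± 2.80 CPM in Het and 139 ± 5.23 CPM in WT. Loxl2, a collagen and elastin crosslinker, was 0.63 ± 0.24 with 113 ± 61.3 CPM in KO, where the libraries scattered widely, against 68.8 ± 1.62 CPM in Het and 77.1 ± 5.04 CPM in WT. Of 18 tested extracellular proteoglycan genes edgeR called 0, 6 had an unadjusted p below 0.05, and DESeq2 called 1 lower, Sdc3. Their median was −0.06, with Bgn, the small leucine-rich biglycan, at −0.41 ± 0.12 and the cell surface syndecan Sdc4 at 0.68 ± 0.24.

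Tmem119 is linked to osteoblasts, and 11 of 15 genes of the osteoblast list passed the filter. EdgeR called 0 of them, DESeq2 called 1 higher, Msx2, and 5 had an unadjusted p below 0.05. The median was 0.18, and 7 of the 11 values lay above 0. Dlx3, a homeobox gene, was 0.65 ± 0.21 (edgeR adjusted p = 0.279) and Msx2 0.43 ± 0.10 (edgeR adjusted p = 0.159, DESeq2 0.0194). Markers of microglia and other macrophages were nearly absent: 4 of 15 were tested, and the list summed to 4.73 to 7.81 CPM in KO, 5.29 to 6.71 CPM in Het and 5.54 to 5.96 CPM in WT, with P2ry12, Trem2 and C1qa at 0 in every library. Tmem119 alone was at 24.5 to 52.0 CPM, above the sum of that list in every library. Of 15 tested aldehyde dehydrogenases beside Aldh1b1, 0 were called by edgeR or DESeq2, 5 had an unadjusted p below 0.05, and the median was 0.14. Aldh4a1, a mitochondrial enzyme of proline breakdown, was 0.35 ± 0.08 (adjusted p = 0.156) and Aldh6a1 0.33 ± 0.16. Aldh1a2, the retinoic acid synthesis enzyme, and Aldh2, the other main mitochondrial acetaldehyde enzyme, were −0.19 ± 0.06 and 0.14 ± 0.08.

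No general mesenchyme marker was called by edgeR or DESeq2, and 9 had an unadjusted p below 0.05. The 23 mesenchyme markers, all tested, had a median of −0.09 and 18 values below 0. They summed to 3019 to 3558 CPM in KO, 2988 to 3570 CPM in Het and 2969 to 3496 CPM in WT, ranges that overlap. The sum is weighted to its most abundant genes. Fn1 alone had 1341 ± 261 CPM in KO and 1213 ± 96.9 CPM in the Het and WT libraries (SD). Overlapping sums therefore do not show that the less abundant markers were unchanged. Within each genotype the sum followed the column set. KO 1-3, Het 1-1 and WT 1-2 of set 1 had 3558, 3570 and 3496 CPM, and the libraries of set 2 had 2969 to 3140 CPM. EdgeR calls among the marker lists were confined to lateral plate, limb and mesothelium, with 3 of 19 lower and 2 higher, and DESeq2 also called Isl1 lower there. In that list 12 of the 19 genes had an unadjusted p below 0.05 (edgeR), again with no background. Tbx4, the hindlimb T-box gene, fell by 0.93 ± 0.16 log2 (adjusted p = 0.0395), to 18.2 ± 0.347 CPM in KO, against 35.2 ± 9.19 CPM in Het and 34.2 ± 6.99 CPM in WT. Pitx1 fell by 0.47 ± 0.07 (adjusted p = 0.0281) and Wt1 by 1.30 ± 0.22 (adjusted p = 0.0426). Irx3 and Msx1, homeobox genes of limb and other mesoderm, rose by 0.35 ± 0.05 (adjusted p = 0.0174) and 0.55 ± 0.08 (adjusted p = 0.0159). Each of these calls was lost in several of the fits with a library left out, while the differences kept their sign. The cause of the losses was not tested. With a library left out, each of the 3 lower calls held in 2 of 8 fits, and the differences ran from −1.03 to −0.81 for Tbx4, −0.56 to −0.39 for Pitx1 and −1.54 to −1.06 for Wt1. The call held in 3 fits for Irx3 (0.31 to 0.38) and in 5 for Msx1 (0.51 to 0.63). Wt1 was −1.29 (adjusted p = 0.0584) with the column set and −1.27 (adjusted p = 0.0616) with Xist level in the model.

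Other marker lists moved with KO 1-3 in part. Surface ectoderm markers summed to 624 to 863 CPM in KO, with KO 1-3 at the top, 547 to 614 CPM in Het and 576 to 645 CPM in WT, with 9 of 12 genes above 0. Somite and sclerotome markers summed to 348 to 498 CPM in KO, with KO 1-3 lowest, 463 to 488 CPM in Het and 435 to 485 CPM in WT. Neural tube markers summed to 330 to 395 CPM in KO, 398 to 435 CPM in Het and 375 to 433 CPM in WT. Primitive erythroid markers summed to 4031 to 6438 CPM in KO, 2833 to 4600 CPM in Het and 2884 to 5858 CPM in WT. Yolk sac endoderm markers summed to 20.7 to 44.8 CPM in KO, with KO 1-3 at the top, 19.1 to 32.9 CPM in Het and 31.2 to 35.9 CPM in WT. Neural crest markers summed to 98.3 to 108 CPM in KO, 113 to 121 CPM in Het and 99.3 to 123 CPM in WT. Endothelial markers summed to 488 to 627 CPM in KO, 535 to 582 CPM in Het and 548 to 569 CPM in WT. No gene of these lists was called by edgeR. DESeq2 called Nes lower in the neural tube list and Krt18, Grhl3 and Tfap2c higher in the surface ectoderm list. Their part in the level of the 4 genes was not tested. Without KO 1-3, the log2 difference of KO from the mean of Het and WT was −0.91 for Mfap4 and −0.99 for Aldh1b1, against −1.13 and −1.08 with it.

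**Figure D4:**
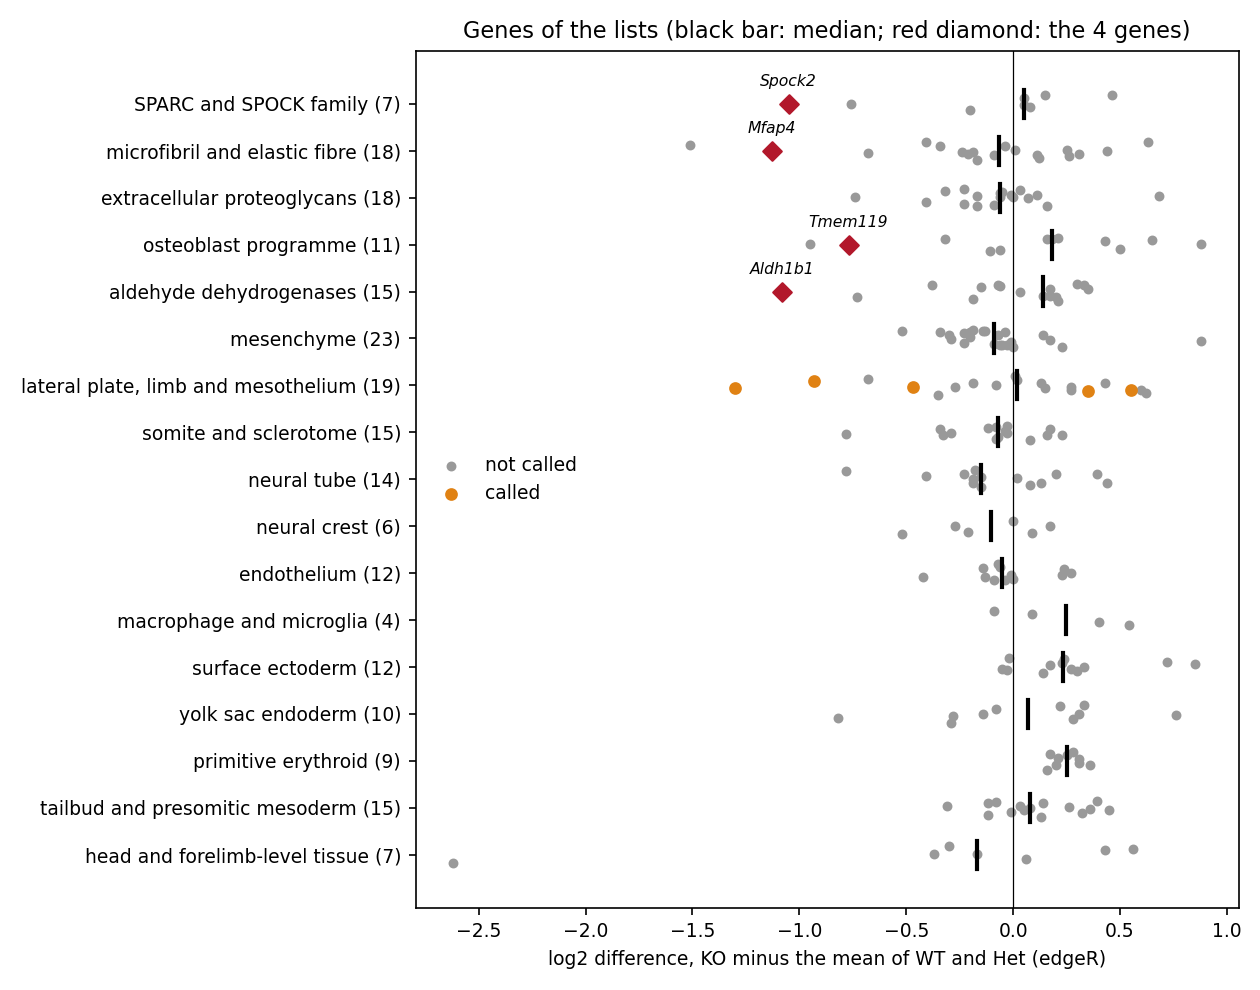
Log2 difference, KO against the mean of Het and WT (horizontal axis), of the tested genes of the 17 lists, with the number of genes in brackets, the median as a black bar and the 4 genes as red diamonds beside their list. Called genes (orange) appear in the lateral plate, limb and mesothelium list, and the list medians lie between −0.17 and 0.25.

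Neighbours on the chromosome were compared in the same contrast. Within 500 kb of the 4 genes lay 51 tested genes, 1 of them called lower, and the median difference was 0.01 around Spock2, 0.09 around Mfap4, −0.05 around Tmem119 and −0.07 around Aldh1b1. The nearest tested genes of Spock2 were Anapc16 (0.01) and Chst3 (0.15), those of Mfap4 Rnf112 (−0.32) and Mapk7 (0.09), and those of Tmem119 Coro1c (−0.05) and Iscu (−0.23). Around Aldh1b1, the nearest gene on the far side was Gm12411, a low-level locus (−1.05 ± 0.40, adjusted p = 0.341).

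On the other side of Aldh1b1 lay the called gene, Igfbpl1, which encodes a secreted protein related to insulin-like growth factor binding proteins. It spans chr4:45809468-45826923 on the minus strand, 4.86 kb past the end of Aldh1b1. Igfbpl1 had 12.6, 12.6 and 15.3 CPM in KO, 20.5, 23.6 and 21.1 CPM in Het, and 19.7 and 21.0 CPM in WT. All KO libraries were below the others, and it fell by 0.64 ± 0.11 log2 (edgeR adjusted p = 0.0376, DESeq2 1.34e-04). The call held in 1 of 8 fits with a library left out, where the highest adjusted p was 0.124. The next gene, Stra6l, a relative of the retinol receptor Stra6, spans chr4:45848664-45887008 on the plus strand and had 16.6, 20.5 and 21.1 CPM in KO, 22.0, 26.4 and 24.2 CPM in Het, and 27.1 and 30.3 CPM in WT. It was −0.44 ± 0.11 log2 and was not called by edgeR (adjusted p = 0.168, DESeq2 0.0254, edgeR with the column set 0.0410). Aldh1b1 was picked for having all KO libraries below the others, so it adds nothing to a count of that pattern here. Igfbpl1 and Stra6l, the next tested genes on this side, also had the pattern, as did 4.41% of tested genes. Over all 51 neighbours 3 showed it, the other being Specc1 near Mfap4.

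**Figure D5:**
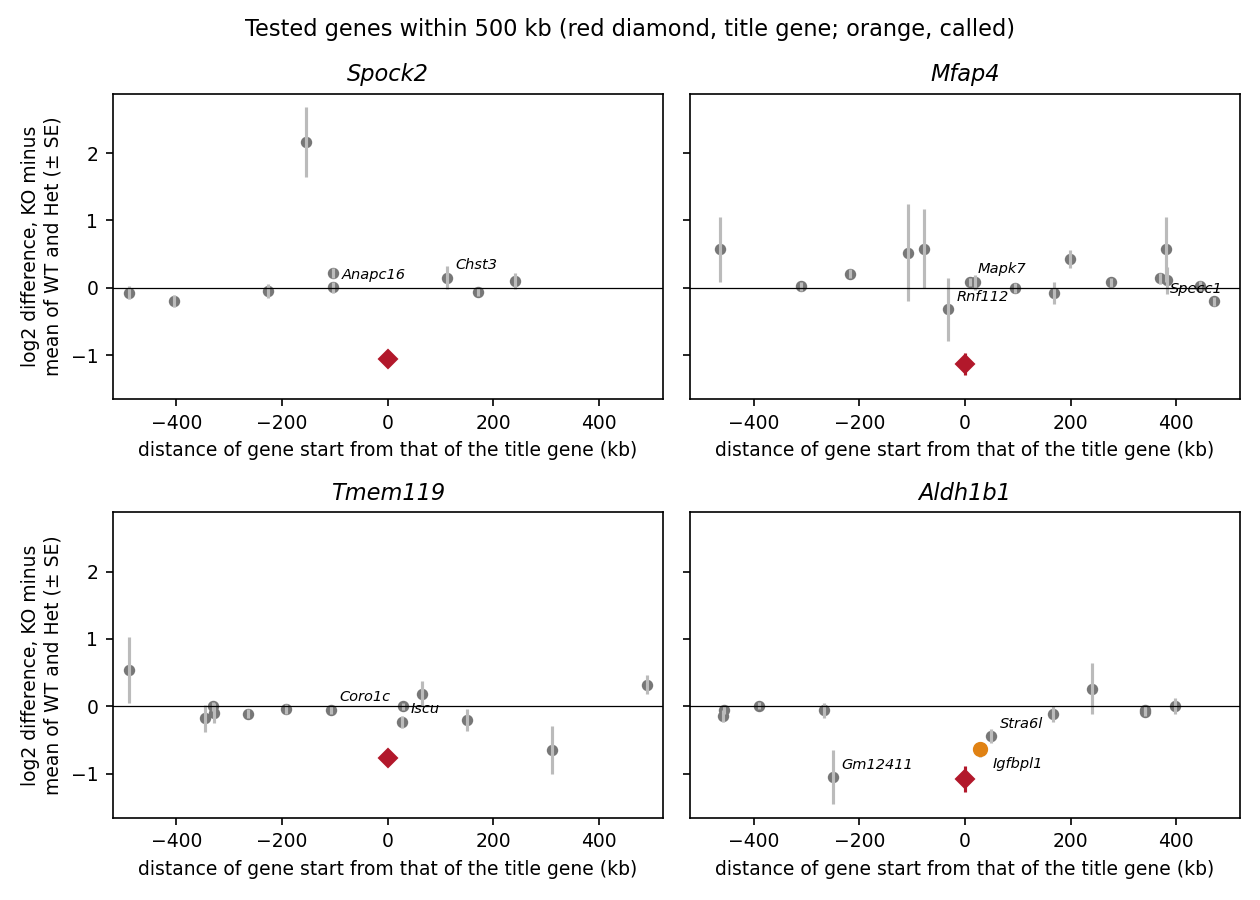
Log2 difference, KO against the mean of Het and WT (vertical axis, ± SE), of tested genes against the distance of their start from that of the gene in the title, which is the red diamond. The called gene Igfbpl1 (orange) and Stra6l lie beside Aldh1b1 at −0.64 and −0.44, and the other panels hold no called gene.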

How the data were processed

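Poly(A) RNA of posterior trunks was sequenced in 8 libraries (3 KO, 3 Het, 2 WT) with a NEBNext Ultra kit, per the labels' protocols. The authors deposited 1 table of raw whole-number read counts per gene and library, with exonic length, position and gene annotation, beside 8 further per-library columns of FPKM, which were not used. The submitters' processing notes list HTSeq 0.6.1, HISAT2 2.0.1, cutadapt 1.9.1, mm10 and GRCm38 with no role or order. Strand setting and annotation release: not given in the sources used here. Columns were assigned to a genotype only, since their numbers match no sample number in the labels.

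Counts were analysed with edgeR 4.0.16 (R 4.3.3, limma 3.58.1): TMM scaling, the default expression filter, 1 mean per genotype in a fit of all 8 libraries, the quasi-likelihood test and Benjamini-Hochberg adjustment over 16262 genes, called below 0.05, two-sided. CPM are TMM-scaled, with SD over libraries. SEs are of log2 differences. FPKM, computed here from counts, library totals and exonic lengths, was used to compare levels between genes. Depth was 16874860 to 17511964 counts per library, and Poisson intervals cover counting error only, while intervals of log2 differences include the spread between libraries. No pair of libraries of the same genotype agreed within counting noise (variance at least 4.55 times), and each was counted as 1 replicate. Such variance does not show that the libraries came from independent embryos or pools.

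The 4 genes and all lists were chosen with earlier results of these data known. Named genes were the 4 genes, Prtg, list genes called in either contrast, for the family lists the 2 with the largest difference at a mean of at least 5 CPM, the 3 most alike genes per gene (1 of them is not reported here), the nearest tested neighbour on each side and called neighbours within 500 kb. The rule gives 2 genes for each cell type marker list as well, and these lists are described by counts and sums instead. Aldh1a2, Aldh2, Specc1, Stra6l, Ddit4, further genes called by DESeq2 and the tissue check genes were picked after their values were seen. Alternatives were DESeq2 1.42.0, its size factors, no filter, column set or Xist level as covariate, fits of Het and WT alone, and leaving out each library. Promoter sequences are from RefSeq on GRCm38.p6.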

Additional observations from a re-analysis of the deposited data

How the results depend on the processing

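In KO against the mean of Het and WT, 42 genes were called lower and 12 higher. DESeq2 called 125 lower and 74 higher, and no filter on low counts gave 207 and 307. With a library left out, the counts ran from 7 to 44 lower and from 2 to 23 higher. In Het minus WT, 0 genes were called by edgeR, 1 by DESeq2, 11 with no filter, and 0 to 1 with a library left out, the 1 without KO 1-3. DESeq2 size factors, the column set, Xist level and, for Het minus WT, a fit of those libraries alone kept every count within 1.5 times. The cause of these shifts was not tested. List genes called were 3 lower and 2 higher, 7 and 7 by DESeq2, and 0 to 3 and 0 to 2 with a library left out.

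For the 4 genes, whose choice fixes the sign, 152 of 156 KO differences moved by less than 1 SD under the alternatives. The other 4 were KO minus WT with a WT library left out: −1.01 and −1.28 for Spock2, −0.56 and −1.15 for Aldh1b1. The 156 values are not separate checks, since the contrasts share libraries. Many could hardly move: KO minus WT of Spock2 was −1.15 in the main fit and also without Het 1-1. In Het minus WT, 0 of 56 values were called, and Mfap4 ran from −0.20 to 0.03 with a library left out, above 0 without WT 1-2. Aldh1b1 ran from 0.12 (without WT 2-1) to 0.72 (without WT 1-2), and Spock2 from −0.33 (without WT 2-1) to −0.06 (without WT 1-2). Where 1 WT library remained, it was assumed to vary like the others. No paired analysis was possible because the columns carry no replicate numbers of the labels. The column set, which is not a label, was fitted as a covariate. With 2 WT libraries and 47 to 145 reads in a library, Aldh1b1 is the least precise of the 4.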

Other observations

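The gene ontology terms in the deposited annotation, looked at after the values of the genes were known, give a wider background for the 4 genes. Spock2 and Mfap4 share the term proteinaceous extracellular matrix. Of the 121 other tested genes with that term, 0 were called lower and 1 higher in KO against the mean of Het and WT by edgeR, with a median of −0.04 log2. Tmem119 shares integral component of membrane with Prtg itself. Of the 2533 other tested genes with it, 7 were called lower (0.276%) and 5 higher, beside 0.258% lower among all tested genes. Aldh1b1 carries mitochondrial matrix, and of 98 other tested genes with that term 1 was called lower (1.02%) and 0 higher, with a median of −0.01 log2.

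Near Spock2, the stress-response gene Ddit4 had a KO mean of 188 ± 206 CPM, against 42.2 ± 8.11 CPM in the Het and WT libraries (SD), and was not called (2.16 ± 0.52 log2, adjusted p = 0.159). Its KO libraries differed from each other by more than those of any other tested neighbour of Spock2.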
